A study of Mus musculus with 24 samples.

Results

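The genes described here are 8 genes of cholesterol synthesis in the mouse nucleus accumbens (NAc), a reward region of the ventral striatum, after early-life stress. They were chosen by name, from a list holding 7 enzyme genes (*Hmgcs1*, *Idi1*, *Fdft1*, *Sqle*, *Lss*, *Cyp51* and *Dhcr7*) and *Srebf2*, the gene of a transcription factor that controls them, and all 8 were found among the 52636 gene identifiers of the count tables. The list carried the name of cholesterol synthesis and uptake, but none of the 8 encodes an uptake receptor, so the uptake genes are given below from a list of their own. RNA-seq was performed on bilateral NAc of 24 C57BL/6 mice (C57BL/6J in the study's methods) at 50 days of age, with 1 library per animal and 6 animals in each of 4 groups. Con females and Con males came from litters that received no stress. MSUS females and MSUS males came from litters subjected to maternal separation with unpredictable maternal stress from postnatal day 1 to 14, for 2 h per day in the sample records and for longer in the study's methods. No group carried a genetic change and none received a drug. The records do not say which animals were littermates, so the p values measure the spread between these animals, which may share a litter.

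Cells in the brain make nearly all of their own cholesterol, because lipoproteins of the blood do not cross the blood-brain barrier. Synthesis starts from acetyl-CoA, runs through mevalonate and isoprenoid units to squalene, and ends with the closing and trimming of the sterol rings. When sterols in the endoplasmic reticulum run low, SREBP2, the product of *Srebf2*, is carried to the Golgi by SCAP, cut by proteases and released to the nucleus, where it activates the genes of the pathway, while INSIG proteins hold it back when sterols are plentiful. Oligodendrocytes need much cholesterol for myelin, and astrocytes supply neurons with it on apolipoprotein E.

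Because SREBP2 acts through short sites close to the start of its target genes, the sequence upstream of 4 of the genes is shown, the regulator itself and enzymes of an early, a middle and a late step. Each window ran 5′ to 3′ on the strand of the gene, started 200 bases before the RefSeq start and ended at that start or before the first base of the gene in the GENCODE annotation, whichever came first. The windows lay on GRCm38.p6 at chr13:119690151-119690350 (plus strand) for *Hmgcs1*, chr15:82147069-82147180 (plus strand) for *Srebf2*, chr10:76531405-76531587 (plus strand) for *Lss* and chr5:4104747-4104897 (minus strand) for *Cyp51*. Capitals mark the letters of the SREBP-type sites TCACNCCAC and TCACNCCA, of the CCAAT box and of the GC box GGGCGG, each on either strand.
Hmgcs1: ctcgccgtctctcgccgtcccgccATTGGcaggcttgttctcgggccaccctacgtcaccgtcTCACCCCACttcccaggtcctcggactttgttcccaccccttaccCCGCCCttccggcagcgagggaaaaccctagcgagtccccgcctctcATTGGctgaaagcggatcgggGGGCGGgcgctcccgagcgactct
Srebf2: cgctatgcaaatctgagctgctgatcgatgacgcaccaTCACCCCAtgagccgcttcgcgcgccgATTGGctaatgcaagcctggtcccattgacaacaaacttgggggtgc
Lss: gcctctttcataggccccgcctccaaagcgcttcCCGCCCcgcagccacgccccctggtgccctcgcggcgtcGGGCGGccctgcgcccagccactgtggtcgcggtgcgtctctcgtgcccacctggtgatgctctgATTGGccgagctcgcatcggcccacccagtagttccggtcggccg
Cyp51: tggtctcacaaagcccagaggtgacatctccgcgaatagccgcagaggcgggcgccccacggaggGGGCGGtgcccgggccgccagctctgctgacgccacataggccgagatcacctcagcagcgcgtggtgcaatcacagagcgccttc

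The 4 motifs were searched in 300 bases, 250 before and 50 after the start, in 32851 RefSeq promoters, of which 8 belonged to 6 of the genes (3 of them to *Dhcr7*). TCACNCCAC was held by 1.24% of all promoters, and among the 8 entries by that of *Hmgcs1*, at bases −137 to −129 from the start. The shorter TCACNCCA, which lies within the longer motif, was held by 4.36% of all promoters, and here by *Hmgcs1* and by *Srebf2* at −162 to −155. CCAAT was found in 37.4% and GGGCGG in 35.7% of all promoters, and both were present in the entries of *Hmgcs1*, *Srebf2*, *Lss*, *Cyp51* and *Idi1* and in 1 of the 3 of *Dhcr7*. The CCAAT box of *Cyp51*, at −29 to −25, and the GC boxes of *Srebf2* nearer to its start lay beyond the windows shown. In the *Hmgcs1* window an inverted CCAAT box at −176 to −172 lay upstream of the SREBP-type site and another at −45 to −41 downstream of it. Such matches describe letters and not bound sites, and binding was not measured.

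The genes lay on 6 chromosomes of GRCm38, and every level below is of read pairs on the sense strand. *Hmgcs1* (ENSMUSG00000093930.2, chromosome 13, 119690379 to 119708260), which makes HMG-CoA from acetyl-CoA units, was the most abundant enzyme gene per length, with 40.9 CPM per kb averaged over the 24 animals (counts scaled to the library and divided by exon length). *Srebf2* (ENSMUSG00000022463.7, chromosome 15, 82147181 to 82205379), which hosts the microRNA gene *Mir33* in an intron, followed with 30.05. *Fdft1* (ENSMUSG00000021273.10, chromosome 14, 63145150 to 63179578), squalene synthase, had 12.96 on the same per-length scale.

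*Cyp51* (ENSMUSG00000001467.5, chromosome 5, 4081145 to 4104746), a demethylase of lanosterol, had 11.8 CPM per kb, and *Sqle* (ENSMUSG00000022351.14, chromosome 15, 59315077 to 59331192), which oxidizes squalene and is a control point of the pathway, had 8.19. *Dhcr7* (ENSMUSG00000058454.15, chromosome 7, 143823145 to 143848410), the last reductase of a branch that ends in cholesterol, had 6.64. The least abundant were *Lss* (ENSMUSG00000033105.12, chromosome 10, 76531588 to 76557138), which closes the sterol rings, with 3.74, and *Idi1* (ENSMUSG00000058258.14, chromosome 13, 8885501 to 8892451), which interconverts the isoprenoid units, with 2.24. The spread over the 24 animals was widest for *Hmgcs1*, whose highest animal had 2.05 times the level of the lowest, and narrowest for *Lss*, with a coefficient of variation of 7.78%. Exons of *Cyp51* and *Fdft1* overlapped those of *Akap9* and *Ctsb* on the opposite strand, and *Hmgcs1*, *Lss* and *Idi1* overlapped antisense or unconfirmed gene models there, so strand-specific counts were used.

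The libraries held between 39923666 and 70575745 sense counts each. Medium spiny neuron markers, which define the NAc, were present in every library, with summed levels between 136923 and 352198 normalized counts (counts divided by a size factor per library) and no marker at 0. The libraries differed in the share of uniquely mapped pairs that fell in no annotated gene. It was 31.0% to 34.8% in Con females (median 32.7%) and 36.3% to 43.9% in MSUS females (median 39.6%), so that these groups did not overlap. In Con males it was 34.7% to 40.6% (median 38.4%) and in MSUS males 32.2% to 44.7% (median 36.4%). Libraries numbered 1 to 12 and 13 to 24 each held 3 animals of every group.

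MSUS was first compared with Con within females, the question being whether stress early in life altered transcription in the NAc by the end of adolescence. In females *Srebf2*, *Fdft1* and *Hmgcs1* fell after MSUS, by 14.3%, 17.1% and 22.1%, and the fitted change of the other 5 was below 0 without passing the threshold of an adjusted p of 0.10. This made 3 of 8 genes called lower, against a background of 11.9% of the 20571 genes tested that were called lower in MSUS females. The median log2 fold change was −0.20 for the 8 genes and −0.0027 for all genes tested. DESeq2 called 4 of the 8, *Sqle* being the additional gene, in a fit that called 5770 of 36401 genes, 2946 of them lower.

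*Srebf2* ranged from 11753 to 13598 normalized counts in Con females (median 12471) and from 10079 to 11239 in MSUS females (median 10896). Every MSUS female lay below every Con female, which was true of no other of the 8 genes and of 3.41% of all genes tested. The log2 fold change was −0.22 (standard error, SE, 0.043, adjusted p = 0.00736 by edgeR's quasi-likelihood test), the smallest adjusted p of the 8 genes. It passed the threshold in all 12 fits that left out 1 animal, and its log2 fold change was −0.26 in libraries 1 to 12 and −0.18 in libraries 13 to 24.

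*Fdft1* ranged from 2509 to 3685 normalized counts in Con females (median 3086) and from 2330 to 2843 in MSUS females (median 2491). The groups overlapped at the lower end, where the lowest Con female lay among the MSUS females. The log2 fold change was −0.27 (SE 0.085, adjusted p = 0.0469 by edgeR's quasi-likelihood test). Without MSUS female 3 it was −0.25 with an adjusted p of 0.107. In libraries 1 to 12 the log2 fold change of *Fdft1* was −0.26 and in libraries 13 to 24 it was −0.28.

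*Hmgcs1*, at the entry to the pathway, ranged from 8729 to 14062 normalized counts in Con females (median 10809) and from 7117 to 10920 in MSUS females (median 8101). Of the 6 MSUS females, 4 lay below the lowest Con female, and MSUS female 1 was the highest of its group. The log2 fold change was −0.36 (SE 0.12, adjusted p = 0.0677 by edgeR's quasi-likelihood test). The call was lost on leaving out any of 8 animals (Con females 1, 2 and 3 and MSUS females 2 to 6), with log2 fold changes from −0.28 to −0.38 and adjusted p values from 0.102 to 0.143.

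*Sqle*, whose product takes the step after squalene synthase, ranged from 2001 to 3261 normalized counts in Con females (median 2649) and from 1764 to 2653 in MSUS females (median 2009). Its log2 fold change of −0.32 was close in size to that of *Hmgcs1*, but its standard error of 0.13 put it just outside the threshold (adjusted p = 0.104 by edgeR's quasi-likelihood test). It passed without Con female 5, Con female 6 or MSUS female 1, with adjusted p values of 0.0532, 0.0797 and 0.0411.

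*Cyp51* ranged from 2423 to 3397 normalized counts in Con females (median 2826) and from 2276 to 2940 in MSUS females (median 2467), with a log2 fold change of −0.18 (SE 0.084, adjusted p = 0.158). It passed the threshold without Con female 5 or MSUS female 1 (adjusted p = 0.0775 and 0.0752 by edgeR's quasi-likelihood test). The groups of the remaining enzyme genes overlapped widely. *Idi1* had medians of 397 normalized counts in Con and 372 in MSUS females and a log2 fold change of −0.14 (SE 0.13). For *Lss* the medians were 2096 and 1998 and the log2 fold change −0.083 (SE 0.055), and for *Dhcr7* they were 2069 and 1907, with a log2 fold change of −0.074 (SE 0.083). The adjusted p values of these 3 genes lay between 0.305 and 0.558, and none of the 3 passed in any fit that left out 1 animal. Within the library sets, *Dhcr7* was the gene whose sign differed, with −0.20 in libraries 1 to 12 and 0.052 in libraries 13 to 24.

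**Figure D1:**
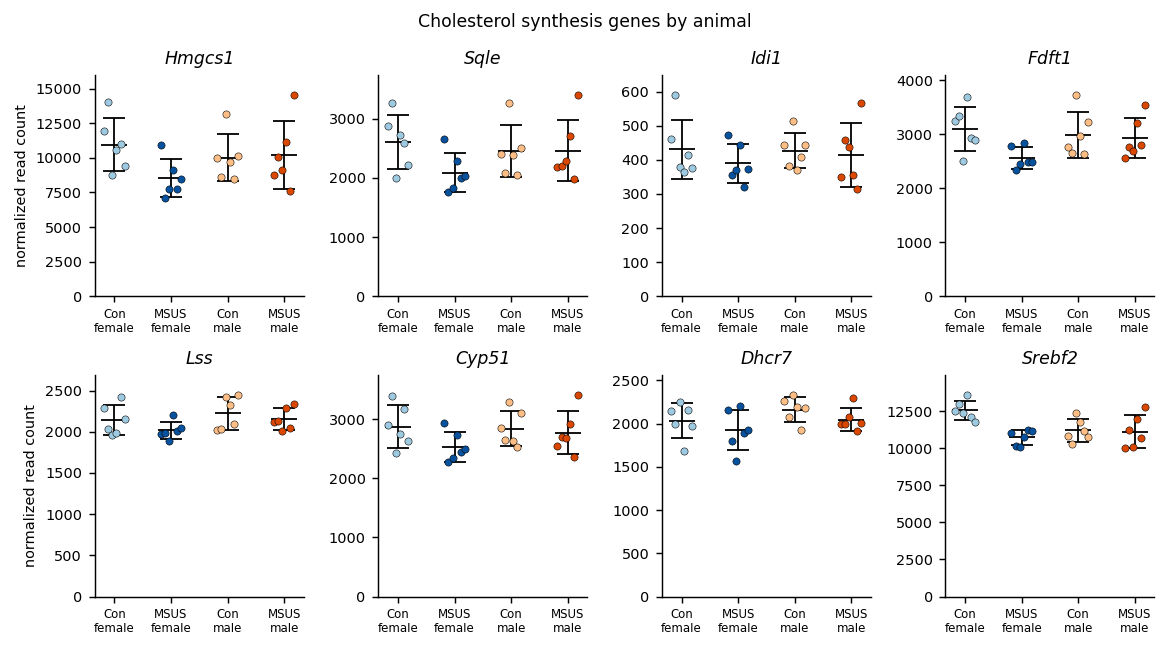
Normalized read count (y axis) of each of the 8 genes in the 4 groups (x axis), with a point per animal, and the mean and SD (n = 6) as lines. All 6 MSUS females lie below all 6 Con females for Srebf2 (highest MSUS female 11239, lowest Con female 11753), and the groups overlap in each of the other 7 panels.

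In males the 8 genes gave no call. Of the 8 genes, 0 were called by edgeR's quasi-likelihood test, 0 by DESeq2 and 0 at an unadjusted p under 0.05, beside 0% of the 20691 genes tested that were called, 191 of them with an unadjusted p under 0.05. The log2 fold changes lay between −0.080 (*Dhcr7*) and 0.025 (*Hmgcs1*), with standard errors from 0.053 to 0.15. *Srebf2* ranged from 10261 to 12392 normalized counts in Con males (median 11011) and from 10043 to 12816 in MSUS males (median 10946), a log2 fold change of −0.011 (SE 0.068). *Hmgcs1* ranged from 8495 to 13166 in Con males (median 9846) and from 7591 to 14565 in MSUS males (median 9581). For both genes the MSUS males reached both above and below the Con males.

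The enzyme genes of males showed the same overlap. *Fdft1* ranged from 2631 to 3732 normalized counts in Con males (median 2859) and from 2553 to 3547 in MSUS males (median 2782), with a log2 fold change of −0.034 (SE 0.099). *Sqle* ranged from 2042 to 3259 in Con males (median 2396) and from 1979 to 3405 in MSUS males (median 2244), with a log2 fold change of 0.0071 (SE 0.14). The male medians of both genes lay between those of the Con females and the MSUS females. *Dhcr7* had the male value farthest from 0 (−0.080, SE 0.053), with medians of 2186 normalized counts in Con males and 2002 in MSUS males. For *Cyp51*, *Lss* and *Idi1* the log2 fold changes in males were −0.038, −0.047 and −0.048. The library sets differed in males. In libraries 1 to 12 all 8 fitted values were below 0, from −0.21 (*Sqle*) to −0.050 (*Lss*), whereas in libraries 13 to 24 those of 6 genes were above 0, up to 0.24 for *Hmgcs1*, and those of *Lss* and *Dhcr7* below it.

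**Figure D2:**
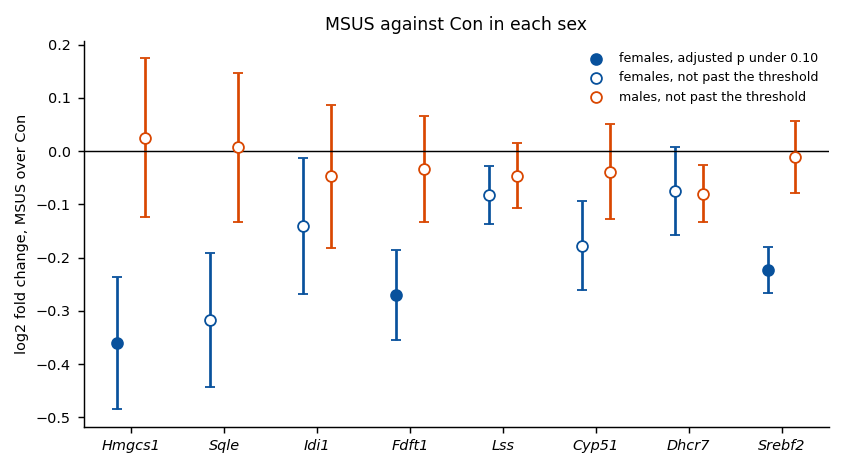
Log2 fold change of MSUS over Con (y axis) for each gene (x axis), in females (blue) and males (orange), with error bars of 1 standard error; filled points passed an adjusted p of 0.10. The filled points are Hmgcs1 (−0.36), Fdft1 (−0.27) and Srebf2 (−0.22) in females, and the males lie between −0.080 and 0.025.

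Whether the effect of MSUS differed between the sexes was asked of the group-by-sex interaction over all 24 animals. By edgeR's quasi-likelihood test 0 of the 8 genes passed, beside 0% of 21500 genes tested. DESeq2 called 0 of the 8, beside 390 of the 38650 genes it tested. Of the 8 genes 1, *Srebf2*, had an unadjusted p under 0.05, as did 4031 of the 21500 genes tested. Its interaction was −0.22 on the log2 scale (SE 0.081, adjusted p = 0.212). It passed without MSUS male 1 (−0.24, adjusted p = 0.0721), a fit in which 3031 of 21617 genes were called. The interaction of *Hmgcs1* was larger and less certain, at −0.39 (SE 0.21, adjusted p = 0.299). That of *Dhcr7* was 0.00038 (SE 0.10). A difference between the sexes in the response of these genes did not pass the threshold in this fit.

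The sexes were also compared within Con and within MSUS animals. In Con animals 0 of the 8 genes were called by edgeR's quasi-likelihood test, against 2.64% of the 20641 genes tested. Of the 8 genes 1 had an unadjusted p under 0.05, as did 3670 of the 20641. That gene was *Srebf2*, higher in females with a log2 fold change of 0.17 (SE 0.053, adjusted p = 0.128). The adjusted p was 0.0589 with DESeq2 and 0.0683 without Con male 5 in edgeR, so the call depended on the tool and on that animal. Those fits called 1485 of 36540 and 1395 of 20813 genes. All 6 Con females lay above the median of the Con males, and 4 of them above the highest Con male.

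In MSUS animals 0 of the 8 genes passed, against 0.135% of the 20714 genes tested. DESeq2 called 0 of the 8, beside 159 of the 36696 genes it tested. All 8 fitted values were below 0, from −0.26 (*Hmgcs1*) to −0.055 (*Srebf2*). *Fdft1* had an unadjusted p under 0.05, as did 1511 of the 20714 genes. Its log2 fold change was −0.19 (SE 0.079, adjusted p = 0.667 by edgeR's quasi-likelihood test). In the order of the group means, MSUS females were lowest for all 8 genes. Con females were highest for 6 genes and Con males for *Lss* and *Dhcr7*. The ranges of neighbouring groups in this order overlapped for every gene, and for *Srebf2* alone did the step from Con females to Con males (1355 normalized counts) exceed the larger SD of that pair (769).

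The other genes of the pathway were examined through lists of their functions, each to be read against the 11.9% of all genes tested that were called lower in females. In females, the early mevalonate genes that are not among the 8 had 2 of 7 called lower and 0 higher, with a median log2 fold change of −0.22. *Mvd*, which makes the isoprenoid unit from mevalonate diphosphate, fell by 0.32 on the log2 scale (SE 0.070, adjusted p = 0.0117). *Mvk*, mevalonate kinase, fell by 0.22 (SE 0.059, adjusted p = 0.0263 by edgeR's quasi-likelihood test).

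Of the 8 other genes of the steps after lanosterol, 4 were called lower and 0 higher in MSUS females, with a median log2 fold change of −0.19 and all 8 fitted values below 0. *Nsdhl* and *Ebp*, which act between lanosterol and the last reductases, fell by 0.21 and 0.24 on the log2 scale (adjusted p = 0.0685 and 0.0745 by edgeR's quasi-likelihood test).

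Genes that process SREBP or sense sterols, beside *Srebf2*, gave 1 call of 10, lower in MSUS females and a share near that of all genes, and a median log2 fold change of −0.012. The gene called was *Insig1*, which retains the SREBP precursor and is itself an SREBP target (log2 fold change −0.25, standard error 0.086, adjusted p = 0.0694 by edgeR's quasi-likelihood test). *Scap*, the escort of SREBP, had a log2 fold change of −0.088 (adjusted p = 0.163), and *Erlin1*, an endoplasmic reticulum protein that restrains SREBP, had one of 0.23 (adjusted p = 0.204), neither past the threshold.

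Of 11 genes of cholesterol uptake and intracellular transport, 2 were called lower and 0 higher in MSUS females (median log2 fold change −0.14), a share near that of all genes. They included *Npc2*, a carrier of cholesterol in the lysosome (−0.14, adjusted p = 0.0407 by edgeR's quasi-likelihood test). *Npc1*, the lysosomal partner of *Npc2*, had a log2 fold change of −0.070 (adjusted p = 0.135). Efflux, esterification and turnover held 2 of 8 tested genes lower and 0 higher (median −0.053), with a ninth, *Ch25h*, removed by the filter on low counts. The 2 were *Cyp46a1*, the neuronal enzyme that clears brain cholesterol (−0.18, adjusted p = 0.0266), and *Nr1h2*, a nuclear receptor for oxysterols (−0.18, adjusted p = 0.0384 by edgeR's quasi-likelihood test). The efflux transporter *Abcg4* had a log2 fold change of −0.089 (adjusted p = 0.195).

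Fatty acid synthesis, a process with its own SREBP regulator, gave 5 of 9 genes lower and 0 higher in MSUS females (median log2 fold change −0.14). *Fasn*, fatty acid synthase, ranged from 21249 to 23281 normalized counts in Con females and from 18877 to 20720 in MSUS females. Its log2 fold change was −0.16 (adjusted p = 0.0172 by edgeR's quasi-likelihood test). These groups did not overlap, nor did those of *Fads1*, *Mvk* and *Mvd*, and every MSUS female lay below every Con female for 3.41% of all genes tested. The desaturase genes *Fads1* and *Fads2* fell by 0.17 and 0.11 on the log2 scale (adjusted p = 0.0110 and 0.0661 by edgeR's quasi-likelihood test). In males, 0 genes of these 6 lists were called by edgeR's quasi-likelihood test.

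**Figure D3:**
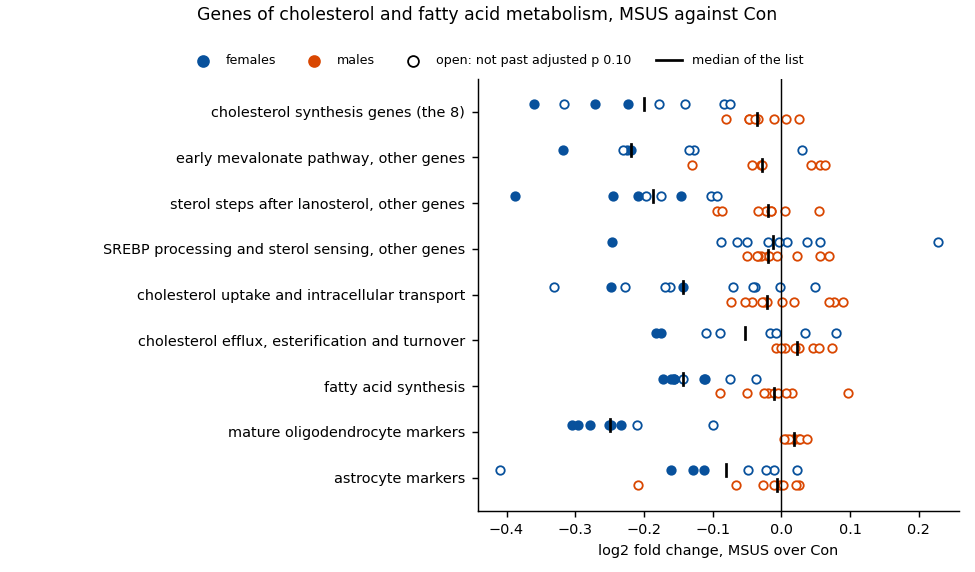
Log2 fold change of MSUS over Con (x axis) for the genes of each list (y axis), in females (blue) and males (orange); a point is a gene, filled where the adjusted p was under 0.10, and a line is the median of the list. In females the medians of the 8 genes (−0.20), the early mevalonate list (−0.22) and the oligodendrocyte markers (−0.25) lie left of 0, and no male point is filled.

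Because bulk NAc holds several cell types, their markers were set beside the changes in females. Among mature oligodendrocyte markers 6 of 8 were called lower and 0 higher (median log2 fold change −0.25), including *Mag* and *Mbp* of myelin, which fell by 0.28 and 0.30 on the log2 scale (adjusted p = 0.0128 and 0.0231 by edgeR's quasi-likelihood test). Their summed level was 220080 to 333287 normalized counts in Con females (median 278643) and 201065 to 246262 in MSUS females (median 235089). Astrocyte markers had 3 of 8 called lower, with summed levels of 317811 to 346232 in Con females and 296717 to 327584 in MSUS females. Of the oligodendrocyte precursor markers 1 of 6 was called lower (summed level 13771 to 15594 in Con and 12984 to 15576 in MSUS females).

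Cortical excitatory neuron markers had 1 of 8 called lower and a median log2 fold change of −1.82. The tissue that these transcripts came from was not examined. Within the list the log2 fold changes ran from −2.21 to 0.041, with 7 of 8 below 0, so these markers did not change alike. Their summed level varied more in proportion than that of any other list. It ran from 13725 to 87182 normalized counts in Con females (median 31990) and from 6778 to 39365 in MSUS females (median 11346). Markers of microglia, endothelium, medium spiny neurons and choroid plexus or ependyma gave 0 calls by edgeR's quasi-likelihood test. An unadjusted p under 0.05 was found for 1 of 7, 3 of 6, 0 of 10 and 0 of the 2 tested. It was found for 6735 of all 20571 genes. The medium spiny neuron sum had medians of 291568 in Con and 290743 in MSUS females. No marker of any list was at 0 in a group. In males the oligodendrocyte markers had 0 of 8 called by edgeR's quasi-likelihood test and a median log2 fold change of 0.018, and the cortical markers 0 of 8 and a median of 0.37. In bulk tissue, fewer cells of a type and less RNA per cell cannot be told apart.

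These properties of the libraries were entered into the female comparison as covariates, one at a time. With a score of the oligodendrocyte markers, their mean log2 CPM, 0 of the 8 genes passed the threshold, and with the same score of the cortical markers 1 passed, *Srebf2* (log2 fold change −0.16, adjusted p = 0.0771 by edgeR's quasi-likelihood test). Over all 20571 genes the calls were 5156 without a covariate (2458 lower), 41 with the oligodendrocyte score (5 lower) and 1925 with the cortical score (755 lower). With the oligodendrocyte score, the log2 fold change was −0.10 for *Hmgcs1* (adjusted p = 0.763) and −0.15 for *Srebf2* (adjusted p = 0.237 by edgeR's quasi-likelihood test). Both marker lists were themselves lower in MSUS females (median log2 fold change −0.25 and −1.82). Each score therefore carries part of the group difference, and what the loss of calls reflects was not tested. With the share of pairs in no gene, 0 of the 8 passed. The fitted values were −0.38 for *Hmgcs1*, −0.39 for *Fdft1* and −0.17 for *Srebf2* (adjusted p = 0.765, 0.760 and 0.760 by edgeR's quasi-likelihood test). Without it they were −0.36, −0.27 and −0.22. In the fit with this share 0 of the 20571 genes were called, with 1174 at an unadjusted p under 0.05. This share did not overlap between the female groups, so it and the group cannot be told apart. A last covariate was the spliced share, the number of splices over the uniquely mapped pairs. With it the values of *Hmgcs1*, *Fdft1* and *Srebf2* were −0.53, −0.30 and −0.10, in a fit that called 0 of the 20571 genes.

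Across the 24 animals the 8 genes varied together to unequal degrees. Over the 28 pairs, Pearson's r of log2 CPM lay between 0.17 and 0.98 with a median of 0.60, and between 0.15 and 0.97 after each group's mean was removed. *Hmgcs1* and *Sqle* formed the closest pair (r = 0.98). These values are descriptions over shared libraries, which also differed in composition.

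*Srebf2* was then related to each of the 7 enzyme genes over the 24 animals, with 100000 permutations and adjustment over the 7 relations. The permutations, here and in the next paragraph, ran without regard to group, so differences between the groups enter the p values. The relation was closest for *Fdft1*, with a Pearson's r of 0.75 (permutation p = 3e-05, adjusted 0.00021) and a Spearman's rho of 0.69 (permutation p = 0.00026, adjusted 0.00112). Without the 2 animals farthest from the median of *Srebf2* r was 0.66, and it was 0.75 in libraries 1 to 12 and 0.73 in libraries 13 to 24. For *Hmgcs1* r was 0.72 (permutation p = 6e-05, adjusted 0.00021) and rho 0.68 (permutation p = 0.00032, adjusted 0.00112), with 0.72 without the 2 farthest animals and 0.79 and 0.71 in the library sets. *Sqle* gave an r of 0.71 and a rho of 0.65 (adjusted permutation p = 0.00042 and 0.00201), and *Cyp51* an r of 0.57 and a rho of 0.54 (adjusted permutation p = 0.00628 and 0.0118). *Idi1* gave an r of 0.39 and a rho of 0.37 (adjusted permutation p = 0.0793 and 0.110), so that r and rho fell on either side of 0.10. For *Lss* and *Dhcr7* r was 0.35 and 0.17 (adjusted permutation p = 0.108 and 0.421) and rho 0.32 and 0.19 (adjusted permutation p = 0.145 and 0.360). Without the 2 animals farthest from the median of *Srebf2* r was 0.59 for *Lss* and 0.49 for *Dhcr7*, beside 0.41 for *Idi1*. In the library sets r was 0.49 and 0.062 for *Lss* and 0.51 and −0.30 for *Dhcr7*. With group means removed r was 0.76 for *Fdft1*, 0.71 for *Sqle*, 0.70 for *Hmgcs1* and 0.55 for *Cyp51*. It was then 0.39, 0.38 and 0.17 for *Idi1*, *Lss* and *Dhcr7*. Whether these relations reflect regulation by SREBP2 or the shared composition of the libraries was not tested.

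*Srebf2* was also the gene of the 8 most closely related to the share of pairs in no gene. Its Pearson's r was −0.81 (permutation p = 1e-05, the smallest that 100000 permutations can give, adjusted 8e-05) and its rho −0.82 (permutation p = 3e-05, adjusted 0.00024), over 8 relations. Without the 2 animals farthest from the median share r was −0.78. It was −0.87 in libraries 1 to 12 and −0.68 in libraries 13 to 24. With group means removed it was −0.66, and −0.49 with the means of each group and library set removed. *Fdft1* and *Hmgcs1* gave weaker relations of −0.57 and −0.54 (adjusted permutation p = 0.0156 and 0.0191). With group means removed these were −0.45 and −0.38, and with the means of each group and library set removed −0.31 and −0.32.

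The genes were also set beside the marker scores, the mean log2 CPM of each list. Over the 24 animals, r with the cortical marker score was 0.86 for both *Hmgcs1* and *Sqle*, 0.74 for *Srebf2* and 0.33 for *Lss*. With the oligodendrocyte score r lay between 0.46 (*Dhcr7*) and 0.78 (*Sqle*). The same animals stood out in several genes. Con male 5 was the highest of the Con males in 7 of the 8 genes, MSUS male 6 the highest of the MSUS males in 7, and Con female 3 and MSUS female 1 the highest of their groups in 4 each.

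Each of these 4 animals also had the highest cortical marker sum of its group, at 60867, 88010, 87182 and 39365 normalized counts. For 3 of them, all but MSUS female 1, the oligodendrocyte sum was the highest of the group too. The part of these markers in the spread between animals was not tested.

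**Figure D4:**
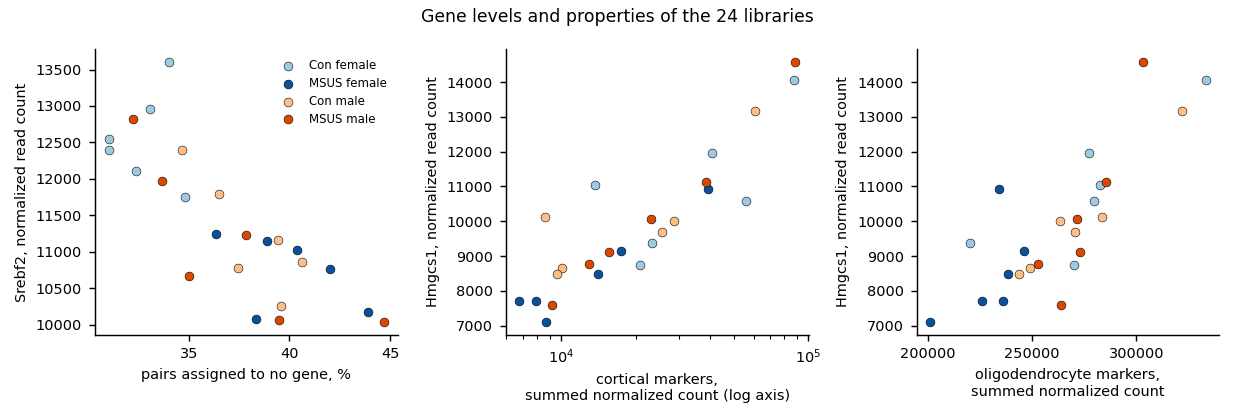
Normalized read count of Srebf2 against the percent of uniquely mapped pairs in no gene (left), and of Hmgcs1 against the summed cortical markers on a log axis (middle) and the summed oligodendrocyte markers (right); each point is an animal, coloured by group. Srebf2 falls as the share in no gene rises (r = −0.81), and the highest Hmgcs1 value (14565) belongs to the animal with the highest cortical sum (88010).

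Of 14305 other genes with a mean of at least 100 counts, those closest to the mean standardized level of the 8 genes over the 24 animals included *Nsdhl* (r = 0.96), *Hsd17b7* (r = 0.94) and *Insig1* (r = 0.93). *Nsdhl* and *Hsd17b7* stood in the list of later sterol steps and *Insig1* in that of SREBP processing. These correlations describe shared libraries and carry no test.

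**Figure D5:**
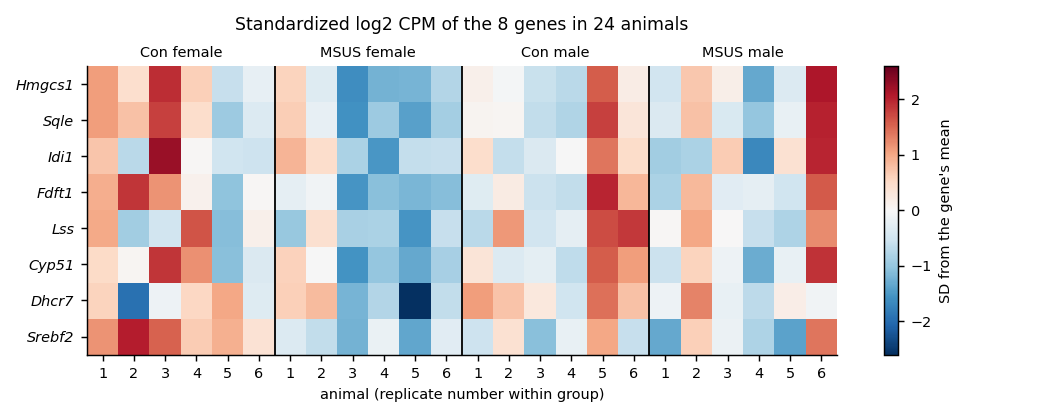
Standardized log2 CPM (colour, in SD from the mean of each gene over 24 animals) of the 8 genes (rows) in each animal (columns, by group and replicate number). Columns of one colour, such as Con male 5 and MSUS male 6, show animals that are high in 7 of the 8 genes within their group.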

How the data were processed

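The authors prepared libraries after enzymatic removal of ribosomal RNA, trimmed adapters, aligned read pairs with STAR to mm10 using GENCODE M15, and deposited counts of uniquely mapped pairs per gene without normalization. The sense-strand column was used, and 0 columns of per-sample values were left aside. Pairs outside genes were kept out of library sizes. Positions came from GENCODE M21, which held 52489 of the 52636 identifiers, and promoter sequences from RefSeq (GRCm38.p6).

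Counts were filtered by edgeR's filterByExpr (minimum count 10), normalized by TMM and tested with the robust quasi-likelihood F test of edgeR 4.0.16 in R 4.3.3, with Benjamini-Hochberg adjustment over all genes tested and a threshold of 0.10. DESeq2 1.42.0 was an alternative and gave the size factors of normalized counts. Standard errors are the log2 fold change over the square root of F. No estrous stage was used, since the records give stages to 6 females and to 6 males. The spliced share used as a covariate was taken from the study's sequencing summary. Correlations used 100000 permutations. The procedure was tested on simulated counts.

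The 8 genes and the lists were chosen with earlier results of these data known. Named were the 8 genes, up to 3 genes per pathway list with the smallest p in females (*Mag*, *Mbp* and *Ch25h* were named after their values were seen), and the 5 closest genes, and some genes that this rule names are not reported here. Tried as alternatives were DESeq2, edgeR with DESeq2's size factors, an unfiltered fit, counts without regard to strand, the replicate block, library set, shares and marker scores as covariates, a fit of all animals, a stricter threshold and each animal left out.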

Additional observations from a re-analysis of the deposited data

Results flagged for a closer look

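*Hmgcs1* in Con males had 1 animal far above the others. Con male 5 had 13166 normalized counts where the group's median was 9846, and the gap to its nearest neighbour was 0.652 of the range of the group, above Dixon's critical value for 6 samples. Of the 32 groups examined (8 genes in 4 groups) this was the one so marked, and chance marks about 1 in 20 groups. The same animal was the highest Con male in 7 of the 8 genes and had the highest cortical and oligodendrocyte marker sums of its group.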

How the results depend on the processing

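In females, 3 of the 8 genes were called. The count was 4 with DESeq2 and 2 without a filter on low counts, in a fit of all 24 animals or at an adjusted p under 0.05. Over all genes the calls were 5156 of 20571 in the main fit, 5770 of 36401 with DESeq2 and 3667 of 36411 without the filter. They were 4087 of 21500 in the fit of all 24 animals and 3126 of 20571 at the stricter threshold. The count of the 8 was 0 with the share of pairs in no gene, the spliced share or the oligodendrocyte score as a covariate, and 1 with the cortical score. Of all 20571 genes those fits called 0, 0, 41 and 1925. Leaving out each animal gave 1 to 5 genes, the lowest without MSUS female 3 and the highest without Con female 5 or without MSUS female 1. Over all genes those fits called 3102 of 20728, 4855 of 20796 and 5737 of 20707. With counts without regard to strand the count of the 8 stayed 3, beside 6823 of 23506 genes. There *Hmgcs1* lost its call (adjusted p = 0.105 by edgeR's quasi-likelihood test) and *Sqle* gained one (0.0964). In libraries 1 to 12 alone and in libraries 13 to 24 alone, fits added after seeing the data with 3 animals per group, the count was 0 and 0. Those fits called 23 of 20615 and 0 of 20732 genes. The cause of these changes was not tested, and each fit within a library set also held fewer animals. The log2 fold change of *Srebf2* was −0.26 and −0.18 in the library sets, that of *Fdft1* −0.26 and −0.28, and that of *Hmgcs1* −0.42 and −0.29.

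In the sexes of Con animals the count of 0 became 1, *Srebf2*, with DESeq2, with counts without regard to strand and with the oligodendrocyte score. On leaving out an animal it was 0 to 1, with 1 without Con male 5. Over all genes the main fit called 544 of 20641. The fits with a call of *Srebf2* called, in the order named, 1485 of 36540, 1362 of 23568, 1678 of 20641 and 1395 of 20813. In the interaction, leaving out an animal gave 0 to 1, with 1 without MSUS male 1, where 3031 of 21617 genes were called. In males and in the sexes of MSUS animals the count stayed 0 in every alternative run. Over all genes the most called in such a run was 1 of 20654 in males and 159 of 36696 in the sexes of MSUS animals. No gene changed sign past the threshold in an alternative.

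The groups share replicate numbers, and the records do not say whether these pair the animals. In females same-numbered Con and MSUS animals correlated between −0.24 and 0.25, and 3 of 6 pairs exceeded 0.1. The range was −0.37 to 0.26 in males, −0.34 to 0.34 between the sexes of Con animals and −0.26 to 0.40 between those of MSUS animals. These values cannot settle whether same-numbered animals share a litter or a day. With the replicate block 4 of the cholesterol synthesis genes were called in females. Over all genes that fit called 3800 of 20571, where the main fit called 5156 of 20571.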
